A study of Mus musculus with 8 samples.

Results

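Chemokines are small secreted proteins that guide white blood cells through G-protein-coupled receptors on the cells that sense them. CC chemokines mainly attract monocytes, macrophages and lymphocytes, and the CXC chemokines that bind Cxcr2 attract neutrophils. Osteopontin and interleukin-1 beta are not chemokines but act in the same inflammatory responses of myeloid cells: the first is a secreted matrix protein bound by integrins and Cd44, and the second a cytokine that signals through Myd88. In bone marrow interleukin-1 beta and many of the inflammatory chemokines are made largely by myeloid cells and their progenitors.

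The 10 genes described here are the ligands Ccl6, Ccl9, Ccl3, Ccl4 and Cxcl2, the receptors Ccr1, Ccr2 and Cxcr2, osteopontin (Spp1) and interleukin-1 beta (Il1b), found by symbol among the 54838 genes in the count tables. They were chosen from their measured values in IOX5 against DMSO, so the values of that comparison are a description of these genes and not a test of them. The samples were iMLL-AF9 mouse bone marrow cells, labelled Leukaemic stem cells and WT, in which the MLL-AF9 fusion oncogene is switched on by doxycycline. 4 were treated with DMSO, the solvent control, and 4 with IOX5, an inhibitor of the HIF prolyl hydroxylases, of which PHD2 is the named target. All 8 carry the same oncogene. The series' own text calls the cells preleukaemic. The dose, the time of treatment, the age of the animals and whether a number stands for an animal or a culture were not given for these samples, so p-values may measure only technical spread between these samples. The promoter that drives the fusion gene was not given for these samples either.

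Reads counted on genes ran from 12343770 to 14116054 per library with DMSO and from 11351507 to 12708888 with IOX5. Of 10 HIF target genes listed as a check on the labels, 10 had a log2 fold change above 0 and 6 were called higher. Ankrd37, Pdk1 and Pgk1 had the smallest adjusted p-values. Of all genes tested, 52.8% had a log2 fold change above 0 and 0.774% were called higher. The samples with the same number deviated from their group means together, with correlations across genes between 0.636 and 0.758, and the number was therefore also fitted as a block. The numbers 3 and 4 were not told apart by this measure: DMSO replicate 4 correlated with IOX5 replicate 3 at 0.685 and with IOX5 replicate 4 at 0.636, and DMSO replicate 3 with IOX5 replicate 4 at 0.617. DMSO replicates 3 and 4 were the closest pair of libraries, with a chi-square per degree of freedom of 2.17 over genes against up to 41.1 for other pairs of a group, and were counted as separate samples. The progenitor markers Hoxa9 (250.2 CPM in DMSO) and Meis1 (104 CPM in DMSO) were expressed in every sample.

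Ccl6 and Ccl9 are neighbouring genes on chromosome 11, and they were the tested members in which every IOX5 sample exceeded every DMSO sample. The stretches before their start sites are shown because these genes deviated together between samples (r = 0.81). Ccl6 deviated as closely with Ccl3 (r = 0.80). The stretches come from RefSeq windows on GRCm38.p6, which were found for 9 of the 10 genes. Ccl6 and Ccl9 both lie on the minus strand. The sequences run 5′ to 3′ and end just before the start site. Capitals mark the part of their aligned stretch that lies before each start site, mismatches included. Most of the Ccl6 capitals align with bases after the Ccl9 start site, which are not shown.
Ccl6 at chr11:83593088-83593337: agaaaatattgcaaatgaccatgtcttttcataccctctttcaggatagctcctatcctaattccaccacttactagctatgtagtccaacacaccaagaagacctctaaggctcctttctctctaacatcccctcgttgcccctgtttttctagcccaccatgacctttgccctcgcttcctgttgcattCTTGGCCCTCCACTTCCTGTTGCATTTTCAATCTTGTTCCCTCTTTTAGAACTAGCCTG
Ccl9 at chr11:83578637-83578886: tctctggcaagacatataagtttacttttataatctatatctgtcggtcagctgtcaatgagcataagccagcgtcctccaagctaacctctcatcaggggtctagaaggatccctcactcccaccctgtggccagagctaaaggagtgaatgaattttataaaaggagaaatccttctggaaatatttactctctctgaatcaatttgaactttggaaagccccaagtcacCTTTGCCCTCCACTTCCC

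The aligned stretch ran from base -59 to base 15 of Ccl6 and from base -18 to base 49 of Ccl9, counted from each start site, so that it is offset between the genes and mostly lies after the start site of Ccl9. It held 59 identical bases, 8 mismatches and 7 gaps, or 79.7% identity, and the part after the start sites is not shown. None of the 32851 windows, other than that of Ccl6 itself, scored higher against Ccl6 than Ccl9 did. Ccl3, the next gene of the cluster, aligned with Ccl6 over only 12 bases, and 8489 of the windows scored higher.

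Motifs were searched on both strands of the windows, from 250 bases before to 50 bases after the start site. The hypoxia response core ACGTG was in 0 of the 10 member windows, against 19.6% of all windows. The member windows included 2 for Spp1 and 0 for Ccl4, which was therefore not searched. Its variant GCGTG was in those of Cxcl2 and Ccr1, against 32.4%. The NF-kB letters GGNNNTTCC were found for Cxcl2, at bases -96 and -77, and for Ccl9 at base -35, against 18.5% of all windows. Ccl9 also held the AP-1 letters TGANTCA at base -53 (7.81% of windows). The letters TATAAA were found for Il1b, Spp1 and Ccl9 (13.6%), TTGCNNAA, read by CEBP factors, for Spp1 (10.8%), and GAGGAAG, read by PU.1, for Cxcl2 and Spp1 (13.6%). A match is a description of the letters and no evidence of binding.

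Ccl6, a CC chemokine that attracts macrophages and other myeloid cells, was the tested member with the largest fold change between the groups. It lies on chromosome 11 from 83587882 to 83593087 (GRCm38, minus strand). Its normalized expression, in CPM, the counts scaled to the library size by TMM, was 142.1, 95.19, 226.8 and 196.4 in DMSO replicates 1 to 4 and 279.7, 501.6, 611.7 and 416.6 in IOX5 replicates 1 to 4. Every IOX5 sample was above every DMSO sample, with DMSO replicate 2 the lowest and IOX5 replicate 3 the highest. The fold change was 2.74, or 1.45 on the log2 scale (SE 0.30, n = 4 per group, edgeR adjusted p = 0.0485). With the replicate block the log2 fold change was 1.46 and the edgeR adjusted p 0.000162. In each pair of the same number the IOX5 value was higher, by 1.97-fold in number 1, 5.27-fold in number 2, 2.70-fold in number 3 and 2.12-fold in number 4. The call without the block was lost when any 1 of the 8 libraries was left out, with edgeR adjusted p between 0.0553 and 0.132 and log2 fold changes between 1.26 and 1.65. Over all genes these fits called between 0 and 463, against 251 with all 8 libraries.

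Ccl9, also a CC chemokine and a ligand of Ccr1, lies 9245 bases from Ccl6 on the same strand (chromosome 11, 83572919 to 83578636). It measured 414.7, 323.0, 464.2 and 493.3 CPM in the DMSO samples and 519.1, 537.4, 752.1 and 694.2 CPM in the IOX5 samples. The groups did not overlap, and the lowest IOX5 value was close to the highest DMSO value. The log2 fold change was 0.56 (SE 0.16, n = 4 per group), with an edgeR adjusted p of 0.102 without the block and 0.000402 with it. Across the pairs the log2 difference ran from 0.32 in number 1 to 0.73 in number 2.

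Ccl3, a ligand of Ccr1, showed no such separation. It measured 31.98, 31.19, 34.85 and 43.47 CPM in DMSO and 31.07, 42.36, 44.08 and 39.46 CPM in IOX5, and the IOX5 value was the higher in 2 of 4 pairs. The groups overlapped, with the lowest value of all in IOX5 replicate 1. Its log2 fold change was 0.15 (SE 0.14; edgeR adjusted p = 0.594, and 0.301 with the block). Ccl3 is at chromosome 11, 83647844 to 83649355, 54756 bases from Ccl6.

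Ccl4, a CC chemokine that lies beside Ccl3 on the plus strand (83662584 to 83664683), had far fewer reads than Ccl3 (170 in DMSO against 1846). It measured 4.80, 3.89, 1.71 and 2.39 CPM in DMSO and 5.61, 10.21, 2.66 and 2.95 CPM in IOX5. The numbers 1 and 2 were above the numbers 3 and 4 in both groups, so the groups overlapped although IOX5 was higher in each of the 4 pairs. The log2 fold change was 0.74 without the block (SE 0.48, edgeR adjusted p = 0.436) and 0.68 with it (SE 0.21, edgeR adjusted p = 0.0347). Without IOX5 replicate 2 it was 0.22 in the fit without the block.

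Cxcl2, a neutrophil attractant that binds Cxcr2, was hardly transcribed. It had 1, 0, 2 and 4 reads in the DMSO samples and 4, 9, 8 and 9 in the IOX5 samples, and was too low to enter the test. The totals were 7 and 30 reads. The values rest on so few reads that no fold is given. The gene is at chromosome 5, 90903871 to 90905938.

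**Figure D1:**
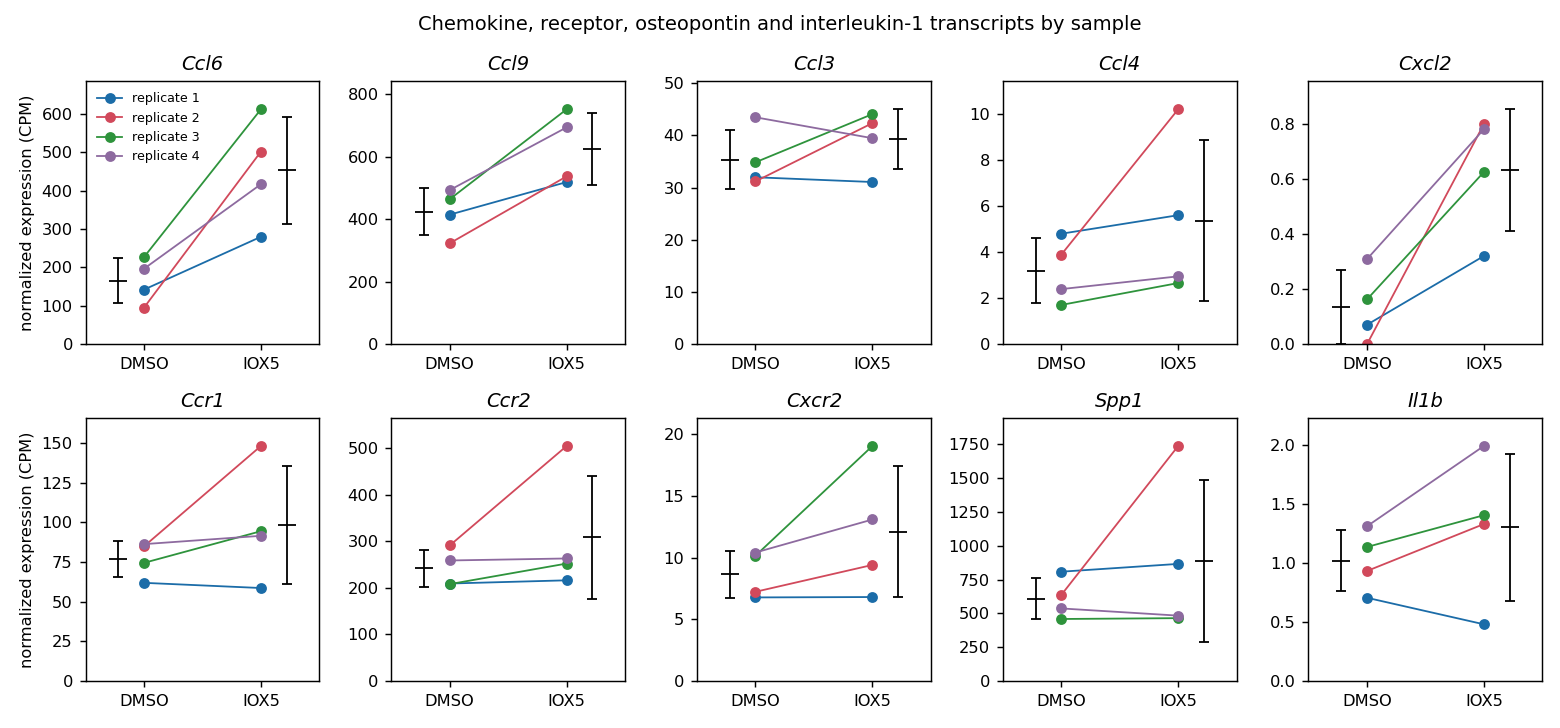
Normalized expression (CPM, vertical axis from 0) of the 10 genes in each sample, with a line joining the DMSO and IOX5 sample of the same replicate number, and with the mean and SD of each group in black (n = 4). Ccl6 and Ccl9 do not overlap between groups, Cxcl2 stays under 1 CPM, and IOX5 replicate 2 is the highest sample for Ccl4, Ccr1, Ccr2 and Spp1.

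Of the receptors, Ccr1 binds Ccl3, Ccl6 and Ccl9, Ccr2 binds Ccl2 and its relatives and marks inflammatory monocytes, and Cxcr2 binds Cxcl2 and marks neutrophils. None of the 3 passed the test of IOX5 against DMSO without a block. Ccr1 measured 61.90, 84.93, 74.50 and 86.32 CPM in DMSO and 58.62, 148.3, 94.50 and 91.58 CPM in IOX5. Ccr2 measured 209.5, 291.4, 208.2 and 259.1 CPM in DMSO and 216.4, 505.5, 252.5 and 263.4 CPM in IOX5. For both, IOX5 replicate 2 stood above all other samples and the remaining IOX5 values lay within or near the DMSO range. The log2 fold change was 0.35 for Ccr1 (SE 0.25) and 0.35 for Ccr2 (SE 0.26), with edgeR adjusted p of 0.462 and 0.480, and of 0.0706 and 0.0656 with the block. Without IOX5 replicate 2 the values fell to 0.085 and 0.012. The 2 genes lie 133.257 kb apart on chromosome 9, Ccr1 from 123962124 to 123968692 (minus strand) and Ccr2 from 124101950 to 124113557 (plus strand).

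Cxcr2 measured 6.78, 7.23, 10.16 and 10.42 CPM in DMSO and 6.81, 9.41, 19.07 and 13.10 CPM in IOX5. The groups overlapped, the numbers 3 and 4 were the higher ones in both groups, and IOX5 was higher in each pair, in number 1 by only 0.0064 on the log2 scale. Its log2 fold change was 0.49 (SE 0.31, edgeR adjusted p = 0.420) and 0.44 with the block (edgeR adjusted p = 0.0443), and it was 0.18 without the block when IOX5 replicate 3 was left out. The gene is at chromosome 1, 74153989 to 74161246.

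Spp1 was the most abundant member in DMSO and the 1 member whose direction turned when a single library was left out. It measured 807.7, 635.3, 458.0 and 536.1 CPM in DMSO and 865.5, 1738, 464.2 and 482.8 CPM in IOX5. IOX5 replicate 2 was far above every other sample and the other IOX5 samples lay within or close to the DMSO range. The log2 fold change was 0.54 (SE 0.41, edgeR adjusted p = 0.498; 0.203 with the block), and without IOX5 replicate 2 it was -0.012, with the sign turned. Spp1 lies at chromosome 5, 104435118 to 104441050, and the gene Gm42793, which overlaps its exons on the same strand, had 170 reads in all samples.

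Il1b was near the limit of the test, with 115 reads over the 8 samples. It measured 0.71, 0.93, 1.14 and 1.31 CPM in DMSO and 0.48, 1.33, 1.41 and 1.99 CPM in IOX5. The groups overlapped and the lowest value was in IOX5 replicate 1. It had a log2 fold change of 0.35 (SE 0.41; edgeR adjusted p = 0.679). Il1b lies at chromosome 2, 129364570 to 129371139 (minus strand). The antisense gene Il1bos, which overlaps one of its exons, had 80 reads, and the strand setting of the counting was not given in the methods.

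**Figure D2:**
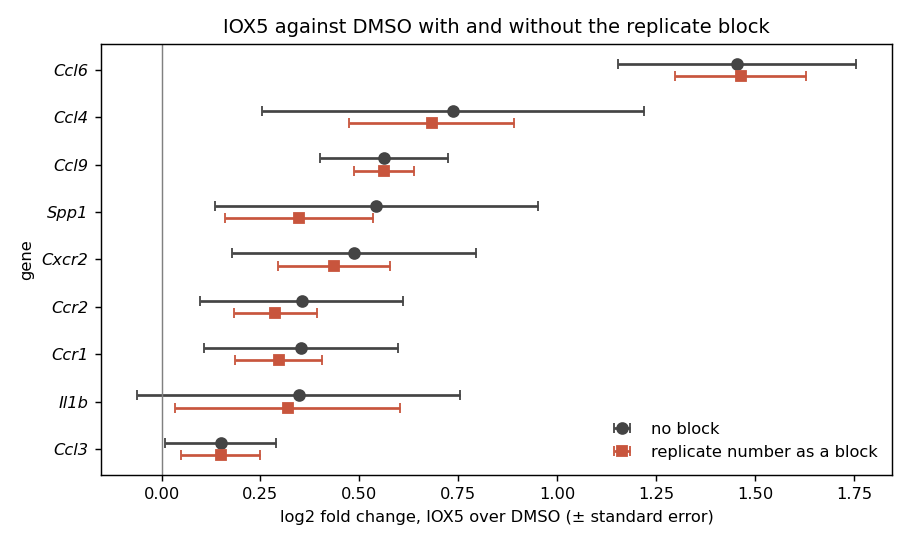
Log2 fold change of IOX5 over DMSO with its standard error (horizontal axis) for the 9 tested genes (vertical axis), from the fit without a block (circles) and with the replicate number as a block (squares). All 9 estimates lie above 0, from 0.15 for Ccl3 to 1.45 for Ccl6 without the block, and the standard error is smaller with the block for each gene.

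Of the 9 tested members, 1 (Ccl6) was called higher and 0 lower by edgeR without the block at an adjusted p of 0.05, where 0.774% of all 12405 genes tested were called higher and 1.25% lower. With the block, 4 (Ccl6, Ccl9, Ccl4 and Cxcr2) were called higher and 0 lower, where 11.2% and 9.43% of all genes were. By DESeq2, 2 (Ccl6 and Ccl9) were called higher and 0 lower, against 3.94% and 4.85% of genes. The groups did not overlap for 2 tested members, against 5.98% of genes that were higher in every IOX5 sample, and 5 members were higher in each pair, against 21.3%. The median log2 fold change of the 9 was 0.49 and that of all genes tested 0.017. Because the members were chosen on this contrast, nothing is read from these counts.

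Bulk samples cannot tell more of one cell type from more RNA per cell. The monocyte and macrophage markers, summed, ran from 482 to 624.4 CPM in DMSO and from 636.3 to 1117 CPM in IOX5. None of 11 tested was called without the block, while 5 were higher and 1 lower with it. Of all genes, 0.774% were higher and 1.25% lower without the block, and 11.2% and 9.43% with it. Neutrophil markers summed to 1033 to 1825 CPM against 1373 to 2637 CPM, with 0 of 9 called and 6 higher with the block. Mast cell and basophil markers ran from 148.8 to 571.4 CPM and from 181.9 to 959.4 CPM, with 0 of 7 called and 7 higher with the block. Eosinophil markers ran from 24.14 to 89.05 CPM and from 37.72 to 300.9 CPM, with 0 of 4 called in either fit. Of 4 megakaryocyte markers, 1 (Vwf) was called higher and 3 with the block, over summed ranges of 25.9 to 69.95 CPM and 84.89 to 138.8 CPM. Progenitor markers summed to 2212 to 4671 CPM and 2510 to 5419 CPM (0 of 8 called, 5 higher with the block), erythroid markers to 5.83 to 27.95 CPM and 11.01 to 43.19 CPM (0 of 5, 2 with the block), B cell markers to 41.15 to 68.13 CPM and 48.48 to 83.39 CPM (0 of 2 in either fit) and stromal, bone and endothelial markers to 89.60 to 172.7 CPM and 140.2 to 229.4 CPM (0 of 4, 1 with the block). The largest part of the progenitor sum was Mpo (mean 2195 CPM in DMSO and 2626 CPM in IOX5). Ptprc came next, with means of 449.5 and 439.4 CPM. Nearly all of the stromal, bone and endothelial sum was Pecam1 (mean 142.2 CPM in DMSO and 189.3 CPM in IOX5), the gene called with the block. The next highest of that list, Acp5, had means of 3.33 and 4.22 CPM, and Col1a2 had 0 reads. Dendritic cell markers summed to at most 0.704 CPM and T and natural killer cell markers to at most 0.400 CPM in any sample. Ms4a1, a defining marker of B cells, was at 0 in all 8 samples. The B cell sum was mostly Ighm (mean 48.46 CPM in DMSO and 55.19 CPM in IOX5), followed by Cd79b (4.59 and 5.02 CPM), both read in every sample. The part of these cell type differences in the chemokine values was not tested.

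The replicate numbers give another contrast than that of IOX5 with DMSO. It was tested with treatment in the model, on members chosen with earlier results of these data known. Here 7 of the 9 tested members differed between numbers by edgeR, against 22.5% of all genes. Ccl6, Ccl9 and Cxcr2 were lowest in the numbers 1 and 2 and highest in number 3. Ccl4 and Spp1 ran the other way, highest in number 2 and lowest in number 3. Ccr1 and Ccr2 were highest in number 2 and lowest in number 1. These ranks are of the mean over the DMSO and the IOX5 sample of a number. In DMSO alone, number 1 was highest for Ccl4 and Spp1, and number 4 for Ccl9, Cxcr2 and Ccr1. For Ccl4, Spp1, Ccr1 and Ccr2 the highest IOX5 sample was replicate 2. The adjusted p of the edgeR F test was 0.0402 for Ccl6, 0.00577 for Ccl9, 0.00228 for Ccl4, 0.00440 for Ccr1, 0.00163 for Ccr2, 0.00435 for Cxcr2 and 0.00587 for Spp1. For Ccl3 it was 0.185 and for Il1b 0.107.

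The size of these differences was set beside that of the treatment. From the lowest to the highest number, the mean deviation spanned 1.5 on the log2 scale for Ccl4 and 1.19 for Spp1, against log2 fold changes in the block of 0.68 and 0.35. It spanned 0.90 for Ccl6 and 0.50 for Ccl9, against 1.46 and 0.56. For each tested member other than Ccl6 and Ccl9 the spread of the numbers was the larger, and for Ccl9 both were of similar size. The measures are unlike, since a span from lowest to highest of 4 numbers is above 0 from noise alone. A fold change is a signed difference of group means. No difference between numbers was called for Ccl3 or Il1b. The treatment values are those the members were chosen on, so nothing is read from the excess for Ccl6. What a number stands for was not stated, so the samples of 1 number may share a mouse, a culture or a day.

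**Figure D3:**
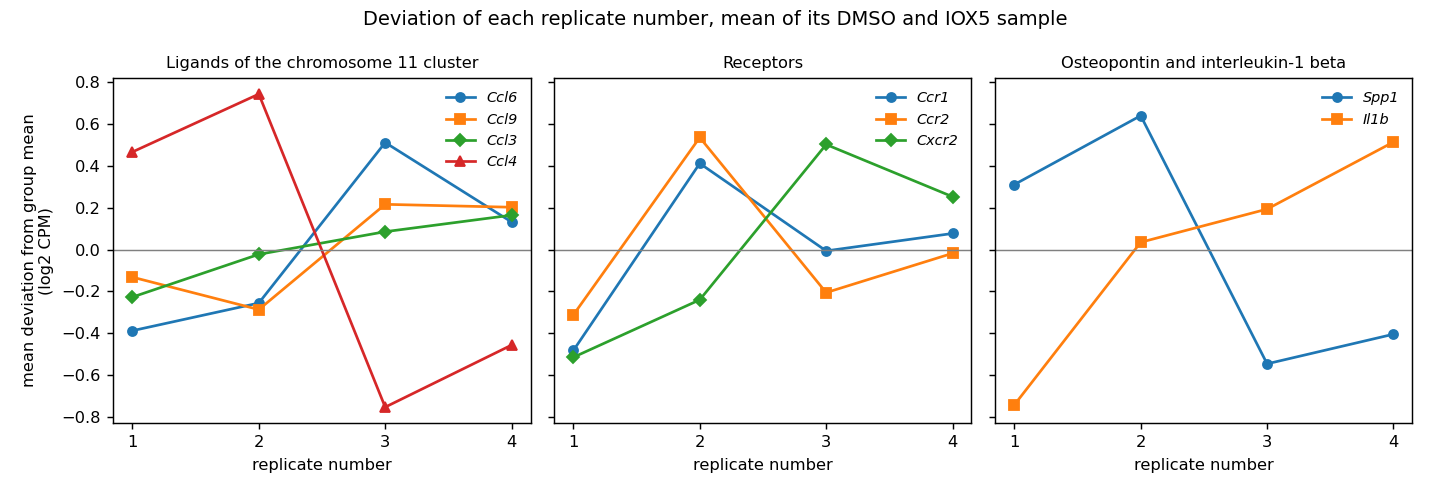
Mean deviation of each replicate number (horizontal axis) from the group means in log2 CPM (vertical axis), averaged over its DMSO and its IOX5 sample, for the 9 tested genes in 3 panels. Ccl6 and Ccl9 are highest in number 3, where Ccl4 and Spp1 are lowest.

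The deviations from the group means describe which members varied together over the 8 samples, which share their libraries and replicate numbers. Ccl6 went with Ccl9 (r = 0.81), Ccl3 (r = 0.80) and Cxcr2 (r = 0.77). Ccl4 went with Spp1 (r = 0.96) and Ccr1 with Ccr2 (r = 0.91). Ccl9 ran opposite to Ccl4 (r = -0.77), although both lie in the same cluster, and opposite to Spp1 (r = -0.67).

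Levels between genes were compared as CPM per kilobase of exon. Spp1 was highest in DMSO (369.7 ± 91.6, SD, n = 4), above 99.4% of the genes tested. Ccl9 followed with 139.2 ± 24.5, Ccl6 with 91.99 ± 32.5 and Ccl3 with 46.2 ± 7.34 CPM per kilobase. Of the receptors, Ccr2 stood at 35.8 ± 6.0 and Ccr1 at 27.2 ± 3.99 CPM per kilobase. Ccl4 (4.84 ± 2.13), Cxcr2 (2.84 ± 0.63) and Il1b (0.54 ± 0.14) lay below the median gene, and Cxcl2 (0.066 ± 0.064) was last. In DMSO the ranges of Ccl9 and Ccl6, of Ccl6 and Ccl3, of Ccl3 and Ccr2 and of Ccl4 and Cxcr2 overlapped, and the other neighbours in this order did not.

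In IOX5 the order of Ccl6 and Ccl9 was turned, with means of 252.0 ± 78.1 for Ccl6 and 205.5 ± 37.8 CPM per kilobase for Ccl9, and their ranges overlapped. The ratio of Ccl6 to Ccl9 per length was 0.58, 0.50, 0.83 and 0.68 in the DMSO samples and 0.91, 1.58, 1.38 and 1.02 in the IOX5 samples, so that each IOX5 ratio was above each DMSO ratio. Ccl6 and Ccl3 overlapped in DMSO and not in IOX5, where Ccl6 was between 155.8 and 340.8 and Ccl3 between 40.57 and 57.55 CPM per kilobase.

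**Figure D4:**
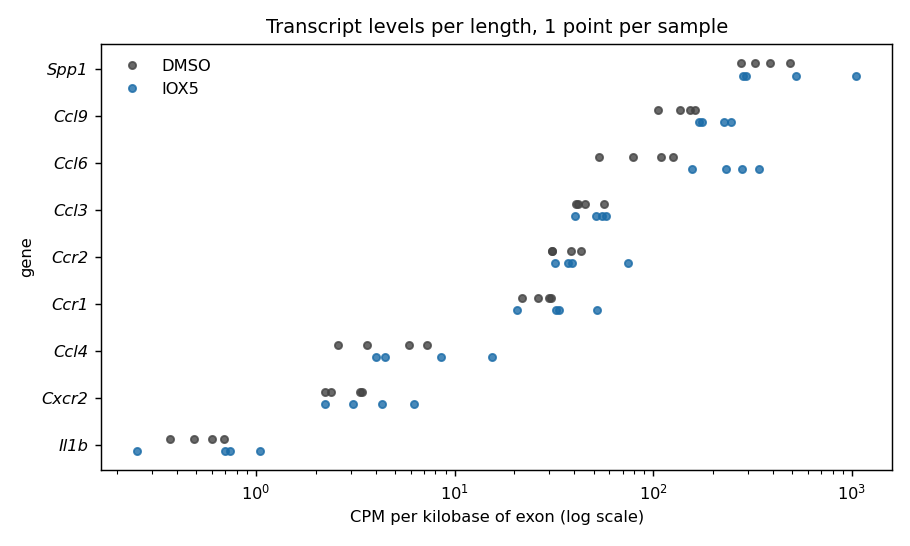
CPM per kilobase of exon in each sample (horizontal log axis) for the 9 tested genes (vertical axis), with DMSO in grey and IOX5 in blue. The levels span from under 1 for Il1b to over 250 for Spp1, and the blue points of Ccl6 lie right of all its grey points.

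As a share of the summed level per length of 35 chemokine ligand genes, Ccl6, Ccl9 and Ccl3 together made up between 91.6% and 95.4% in DMSO and between 91.3% and 95.4% in IOX5. Within that sum Ccl6 was 30.4% ± 5.38 in DMSO and 45.6% ± 5.42 in IOX5 (SD, n = 4), while Ccl9 was 47.4% ± 1.90 and 38.3% ± 5.36 and Ccl3 15.9% ± 2.34 and 9.54% ± 0.74. The ranges of Ccl6 did not overlap. These are shares of a sum, so a rise of Ccl6 lowers the other shares. In mean level Ccl9 went from 139.2 in DMSO to 205.5 in IOX5, and Ccl3 from 46.2 to 51.2 CPM per kilobase. The share of Ccl6 and its ratio to Ccl9 contain the treatment difference that the members were chosen on, so nothing is read from them. Of 24 chemokine receptor genes, Cxcr4, the receptor that holds progenitors in marrow, took 47.5% ± 3.78 in DMSO, Ccr2 26.7% ± 3.08 and Ccr1 20.2% ± 0.69. 9 ligand genes and 4 receptor genes had 0 reads in all 8 samples, which leaves room for up to 3 reads in a library.

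Around the cluster on chromosome 11, from 83375778 to 83814683, 17 protein-coding genes are annotated and 12 were tested. Ccl6 was the 1 gene called higher without the block. With the block, Ccl9, Ccl6, Ccl4 and Wfdc17 were higher and Taf15 lower. Wfdc17, which encodes a small secreted protein of macrophages, measured 119.2, 144.8, 43.06 and 56.21 CPM in DMSO and 121.4, 285.2, 66.28 and 80.57 CPM in IOX5, with IOX5 replicate 2 again the highest. Ccl5, between Taf15 and Ccl9, had 9 reads in all.

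**Figure D5:**
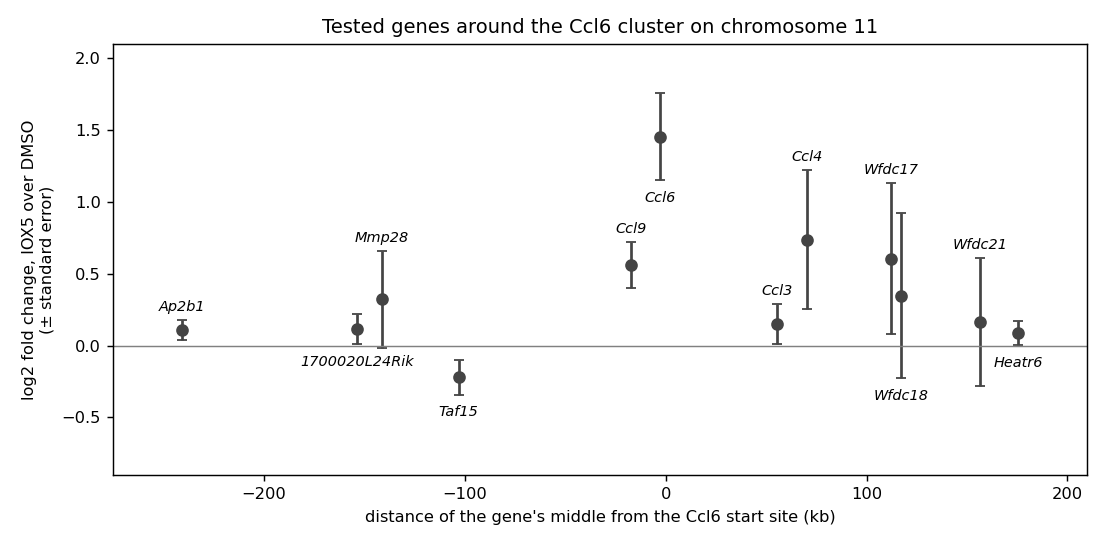
Log2 fold change of IOX5 over DMSO without the block, with its standard error (vertical axis), for the 12 tested genes by the distance of each gene's middle from the start site of Ccl6 in kb (horizontal axis). Ccl6 (1.45) stands above its neighbours, Ccl9 is at 0.56, and Taf15 is below 0.

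The other genes of these pathways, 158 in 7 lists of which 109 were tested, gave 0 higher and 0 lower calls by edgeR without the block. Of all genes tested, 0.774% were called higher and 1.25% lower. An unadjusted edgeR p under 0.05 was reached by 19 of the 109, and by 2506 of all 12405 genes. By edgeR with the block, 30 were higher and 4 lower, against 11.2% and 9.43% of all genes. These shares also stand beside the counts by list below. By DESeq2, 7 were higher and 0 lower, against 3.94% and 4.85%. The median log2 fold change was 0.14, with 67.0% above 0, against 0.017 and 52.8% of all genes tested. Between replicate numbers, 60 of the 109 were called, against 22.5% of all genes.

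Among 30 other ligands, 8 were tested and 4 (Ccl2, Ccl7, Pf4 and Ppbp) were higher with the block. Ccl2, the main ligand of Ccr2, measured 6.49, 3.27, 1.14 and 1.16 CPM in DMSO and 7.61, 17.14, 3.28 and 4.42 CPM in IOX5 and was higher in each pair. The ranges overlapped (log2 fold change 1.41, SE 0.68, edgeR adjusted p = 0.284; 0.00466 with the block). Ppbp, a platelet chemokine that binds Cxcr2, measured 2.05, 0.54, 2.76 and 2.08 CPM in DMSO and 5.85, 4.17, 10.40 and 6.16 CPM in IOX5. Its groups did not overlap, with an edgeR adjusted p of 0.0694 without the block and 0.000126 with it.

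Of 21 other chemokine receptors, 4 were tested and 0 called in either fit. Cxcr4 measured from 94.59 to 130.3 CPM in DMSO and from 97.22 to 130.5 CPM in IOX5, a log2 fold change of -0.020 (SE 0.13).

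Of 11 other chemoattractant receptors, 9 were tested and 5 (Fpr2, C3ar1, C5ar1, C5ar2 and S1pr4) were higher with the block. Ltb4r1, a leukotriene receptor, had a log2 fold change of 0.17 (SE 0.34), and S1pr4, a sphingosine-phosphate receptor, one of 0.57 (SE 0.25, edgeR adjusted p = 0.252; 0.00140 with the block). C5ar1, the receptor of complement C5a, was picked after its values were seen: it measured 2.61, 4.2, 2.03 and 1.24 CPM in DMSO and 11.21, 26.11, 5.55 and 5.90 CPM in IOX5. Its groups did not overlap (log2 fold change 2.27, SE 0.57, edgeR adjusted p = 0.0734; 1.63e-05 with the block).

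Downstream of the receptors, 32 of 32 signalling genes were tested and 8 were higher with the block. Gnai2, the inhibitory G-protein subunit, measured 745.5 to 824.6 CPM in DMSO and 769.8 to 1042 CPM in IOX5 (log2 fold change 0.20, SE 0.092), and Cdc42, a small GTPase of cell polarity, had a log2 fold change of -0.020 (SE 0.056). Of 29 interleukin-1 family, receptor and processing genes, 27 were tested, and with the block 9 were higher and 2 lower. Myd88, the adaptor that carries the interleukin-1 signal, was lower in each of the 4 pairs, with 115.4, 161.6, 123.6 and 132.0 CPM in DMSO and 71.84, 130.5, 96.45 and 106.3 CPM in IOX5 (log2 fold change -0.39, SE 0.18, edgeR adjusted p = 0.250; 0.00208 with the block). Irak1, the kinase that follows it, had a log2 fold change of 0.0083 (SE 0.064).

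None of the 7 tested genes of the 12 in the osteopontin list was called in either fit, and its most abundant members Itgb1 (-0.020, SE 0.051) and Cd44 (0.15, SE 0.11) had small log2 fold changes. Of 23 NF-kB and immediate-early genes, 22 were tested. With the block 4 (Nfkbia, Nfkbie, Tnfaip3 and Ier3) were higher and 2 (Rel and Zfp36) lower. Nfkbia, which encodes the inhibitor that holds NF-kB in the cytoplasm, measured 40.73, 58.64, 40.30 and 43.55 CPM in DMSO and 50.69, 113.0, 56.82 and 64.70 CPM in IOX5 (log2 fold change 0.64, SE 0.25, edgeR adjusted p = 0.200; 0.000888 with the block). Tnfaip2 had a log2 fold change of 0.14 (SE 0.13).

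The genes whose values were most like those of Ccl6 were sought among the 9892 tested genes with a mean of at least 5 CPM. Over all 8 samples, by correlation of log2 CPM, these included Tecpr1 (r = 0.98), Abtb1 (r = 0.98), Gstm1 (r = 0.98) and Arhgap15 (r = 0.97), and Ccl9 ranked 71 (r = 0.93). This measure contains the treatment difference that chose Ccl6. By deviations from the group means, which leave it out, they were Rhof (r = 0.99), Slc22a4 (r = 0.98), Man2c1 (r = 0.97), Tle3 (r = 0.96) and Rarg (r = 0.96), and Ccl9 ranked 286. The points of both measures share their libraries and replicate numbers.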

How the data were processed

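RNA of mouse iMLL-AF9 cells treated with DMSO (n = 4) or IOX5 (n = 4), was sequenced from directional poly(A) libraries. Per the study's methods and the submitters' processing notes, the authors trimmed reads with cutadapt 1.18, mapped them to GRCm38 with HISAT2 2.2.1 and made the deposited counts, raw and per library, with HTSeq 2.0.1. The annotation release given to the counting step and its strand setting are not given in the sources used here. Groups and replicate numbers were taken from the sample labels. The last lines of each table, for reads on no gene, held between 20.6% and 22.6% of reads and were left out. Gene names and positions came from GENCODE M21 (54809 of 54838 genes matched).

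Counts were filtered with filterByExpr, scaled by TMM (factors 0.988 to 1.03) and tested with edgeR 4.0.16 in R 4.3.3 by the quasi-likelihood test, without a block, with Benjamini-Hochberg adjustment over 12405 genes and a call at 0.05. CPM values are TMM-scaled. Log2 CPM used a prior count of 2. The standard error of an edgeR log2 fold change was derived from the test. It is the absolute log2 fold change divided by the square root of the quasi-likelihood F statistic. The replicate number was also fitted as a block, since the same-number samples correlated in every pair (0.636 to 0.758, from deviations from group means), although the numbers 3 and 4 correlated as much with each other (0.617 and 0.685). The biological coefficient of variation was 0.202 without and 0.0794 with it. DESeq2 1.42.0, limma 3.58.1 (voom), other scalings and filters, and each library left out were tried as alternatives.

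The members and gene lists were chosen with earlier results of these data known. Of each list, the called genes (up to 3 in each direction) and the 2 most abundant were named, and the genes listed as called only with the block were named after their values were seen, as were others said to be so. The proteins of the members were not compared, and some genes that this rule names are not reported here.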

Additional observations from a re-analysis of the deposited data

Results flagged for a closer look

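Among 44 groups of 4 values examined for the members and the other named genes, 5 held a sample far from its group by Dixon's test at 95%. By chance about 1 in 20 groups would.

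Ccr2 measured 505.5 CPM in IOX5 replicate 2, where the other IOX5 samples were between 216.4 and 263.4 CPM. In the same library Ltb4r1 measured 30.46 CPM (others 12.33 to 14.93 CPM). In DMSO replicate 2, which has the same number, Gnai2 measured 824.6 CPM (others 745.5 to 757.8 CPM) and S1pr4 12.83 CPM (others 23.40 to 24.78 CPM). Irak1 measured 155.8 CPM in IOX5 replicate 1 (others 150.6 to 151.2 CPM), which is a narrow range. The cause of these deviations was not tested.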

How the results depend on the processing

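The number of members called higher was 1 without the block, 4 with the replicate block, 2 by DESeq2 and 0 with RLE factors, where the adjusted p of Ccl6 in edgeR was 0.0522. It was 0 whichever library was left out (0 to 0), with adjusted p for Ccl6 between 0.0553 and 0.132. Over all the alternatives the adjusted p of Ccl6 ran from 2.18e-05 (DESeq2) to 0.132. The number of members called lower was 0 under all alternatives. With the block, leaving out 1 replicate number gave 2 to 5 members called higher, 2 of them without number 3. These fits were chosen after seeing the data.

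Of the other pathway genes, 0 were called higher and 0 lower without the block, 30 and 4 with the replicate block, 7 and 0 by DESeq2, and 6 and 1 by voom. Leaving out 1 library gave 0 to 1 higher, the 1 without IOX5 replicate 1. With the block and 1 number left out it gave 12 to 28 higher (19 without number 2, 12 without number 3) and 2 to 7 lower (2 without number 1, 7 without number 2). The log2 fold change of Spp1 ran from -0.012 without IOX5 replicate 2 to 0.755 without IOX5 replicate 3. Over the alternatives for single members, 120 values kept direction and call, 9 kept direction and lost the call, 4 gained it and 1 turned sign. The block changed no other member's call than those of Ccl9, Ccl4 and Cxcr2. Between replicate numbers, 7 members were called, and 5 to 8 under the alternatives.

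Over all genes, edgeR called 96 higher and 155 lower, 1394 and 1170 with the replicate block, 489 and 602 by DESeq2, and 101 and 108 with upper-quartile factors. It called 0 when replicate 3 or 4 of DMSO, or replicate 3 of IOX5, was left out (p under 0.05 unadjusted for 1969, 1846 and 2111 genes) and 463 without IOX5 replicate 4. Other scalings moved the median log2 fold change by at most 0.018. Reads on Cxcl2 and Il1b were too few to show a modest difference.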

Other observations

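Of the interleukin-1 list, 3 genes were picked after their values were seen. Il1rn, the secreted antagonist of the interleukin-1 receptor, measured 8.26, 7.47, 5.2 and 5.25 CPM in DMSO and 14.42, 27.97, 8.44 and 7.11 CPM in IOX5, higher in each pair although the ranges overlapped. Its log2 fold change was 1.14 (SE 0.42, edgeR adjusted p = 0.174; 0.00278 with the replicate block). Il1f9, a cytokine of the same family, measured 11.77 ± 5.70 CPM in DMSO and 20.90 ± 11.73 CPM in IOX5 (SD, n = 4), with a log2 fold change of 0.82 (SE 0.45, edgeR adjusted p = 0.347; 0.000576 with the block).

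Il1rl1, the receptor of interleukin-33 and a gene of mast cells, measured 10.31, 8.79, 58.66 and 52.27 CPM in DMSO and 19.38, 19.18, 104.8 and 65.39 CPM in IOX5. The numbers 3 and 4 were above the numbers 1 and 2 in both groups (edgeR adjusted p = 4.55e-08 for replicate number), and IOX5 was higher in each pair (edgeR adjusted p = 0.652 without and 0.000675 with the block).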
